A study of Drosophila melanogaster with 23 samples.

Results

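PPO1, PPO2 and lz are 3 crystal cell genes, taken by symbol from the 17104 gene symbols in the deposited count tables of adult Drosophila melanogaster hearts. PPO1 and PPO2 were chosen by their fall in counts with age in these same libraries, and lz was added as the transcription factor of the lineage that makes them. Their change with age is therefore given as a description with no test. The LamC RNAi contrasts are handled the same way, because they share the attp2 libraries. Counts of these genes past a threshold in those contrasts follow from that choice and are no evidence. All 3 genes passed the low-count filter in every fit.

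Crystal cells are blood cells of the fly that store prophenoloxidases. When they rupture at a wound, the enzymes are cleaved to active phenoloxidase and oxidise phenols to melanin, which seals the wound and coats invaders. PPO1 and PPO2 encode the prophenoloxidases of crystal cells, and the related PPO3 serves lamellocytes, the encapsulating cells that appear after wasp parasitism. lozenge (lz) encodes a Runx transcription factor that commits a blood cell precursor to the crystal cell fate together with the GATA factor Serpent (srp), downstream of Notch (N).

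The 23 libraries were made from dissected hearts and fall into 5 groups. The strain w1118 was sampled at 1 week (n = 4) and 5 weeks of age (n = 4), and the strain attp2 at 1 week (n = 5) and 5 weeks (n = 5). The remaining group carries RNAi against Lamin C (LamC) in the attp2 strain and was sampled at 1 week (n = 5). The series' text has the RNAi driven by the promoter of Hand, a gene whose sites of activity include cardiomyocytes and pericardial cells. Whether the RNAi also acts in blood cells or their precursors was not tested. The labels name no separate animals or cultures behind the replicates, give no sex and do not say how many hearts were pooled, so a p-value measures only the spread between these libraries.

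Each library held between 21792178 and 90030108 gene counts. LamC itself was at 171 ± 33.6 CPM (reads of the gene per 1000000 counted reads; SD, n = 5) in attp2 at 1 week and at 149 ± 42.4 CPM (SD, n = 5) in the libraries labelled LamC RNAi, a log2 difference of -0.20 ± 0.20 (SE; edgeR's quasi-likelihood test, adjusted p = 0.628). The heart regulator Hand was found in every group, at group means of 266 to 548 CPM. Transcripts of 5 fat body and oenocyte marker genes summed to between 85451.5 and 220405 CPM in a library. Transcripts of gut trypsin-like proteases stood at 469 to 12249 CPM in 4 libraries, which were replicate 3 of attp2 at 1 week, replicates 3 and 4 of attp2 at 5 weeks and replicate 3 of LamC RNAi. The w1118 libraries were deposited in a count table of their own, so strain and table cannot be told apart.

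PPO1 (FBgn0283437) lies on chromosome 2R from 17887220 to 17889973 on the minus strand in the BDGP6.54 annotation of the dm6 assembly. It overlaps Elk, a potassium channel gene on the opposite strand. PPO2 (FBgn0033367) lies on 2R from 9042261 to 9044709 on the minus strand, and lz (FBgn0002576) on X from 9284649 to 9303636 on the plus strand. Neither overlaps another annotated gene.

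PPO1 stood at 337, 282, 331 and 447 CPM in replicates 1 to 4 of w1118 at 1 week. At 5 weeks it stood at 46.9, 47.8, 20.5 and 3.62 CPM. No 5-week library reached the lowest 1-week library, and replicate 4 of the old group lay well below the rest. The fitted log2 fold change was -3.56 ± 0.63 (SE). Against the 1-week geometric mean, old replicates 1 to 3 were 7.33, 7.19 and 16.8 times lower, and replicate 4 lower still. In bulk tissue, fewer crystal cells and less RNA per crystal cell cannot be told apart.

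PPO2 stood at 406, 384, 438 and 525 CPM in w1118 at 1 week and at 43.1, 40.2, 32.3 and 4.72 CPM at 5 weeks. Old replicate 4 was again the lowest, and the ages did not overlap. The log2 fold change was -3.87 ± 0.55 (SE). PPO2 and PPO1 ranked 11 and 13 from the lowest of 9631 genes tested by log2 fold change. These ranks follow from the choice of the genes and are no evidence.

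In attp2 hearts PPO1 stood at 574, 680, 679, 582 and 681 CPM at 1 week and at 10.5, 76.8, 7.96, 9.68 and 4.88 CPM at 5 weeks. PPO2 stood at 516, 597, 619, 557 and 636 CPM at 1 week and at 12.5, 72.5, 8.06, 8.29 and 7.05 CPM at 5 weeks. Replicate 2 of the old group was high for both genes, yet it too lay below every young library. The log2 fold changes were -4.86 ± 0.69 (SE) for PPO1 and -4.76 ± 0.64 (SE) for PPO2. Without that library they were -6.27 and -6.02. The other 4 old libraries were 60.8 to 130.5 times lower than the 1-week geometric mean for PPO1, and replicate 2 was 8.29 times lower.

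lz was a scarce transcript, with between 12 and 387 counts in a library. In w1118 it stood at 6.94, 6.32, 6.77 and 2.79 CPM at 1 week and at 2.23, 4.39, 3.23 and 0.27 CPM at 5 weeks. The ages overlapped, since young replicate 4 was below old replicates 2 and 3. The lowest old library rested on 12 counts, with an exact Poisson 95% interval of 6.20 to 21.0 that covers counting error only. The log2 fold change was -1.17 ± 0.60 (SE).

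In attp2 lz stood at 2.46, 4.23, 4.43, 3.19 and 3.35 CPM at 1 week and at 0.22, 2.04, 0.41, 0.48 and 0.51 CPM at 5 weeks. The ages did not overlap, and replicate 2 was again the highest old library. The log2 fold change was -2.27 ± 0.50 (SE), and -3.11 without that library. Without the 4 libraries with gut transcripts it was -1.85. As a count that the choice of genes sets and not as a test, 2 of the 3 members lay past the edgeR threshold of adjusted p under 0.05 on the lower side in w1118, and 3 of 3 in attp2. Of all genes tested, 3.70% did so in w1118 and 10.5% in attp2. Libraries of the ages did not overlap, with the old ones lower, for 7.91% of genes tested in w1118 and 8.70% in attp2.

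**Figure D1:**
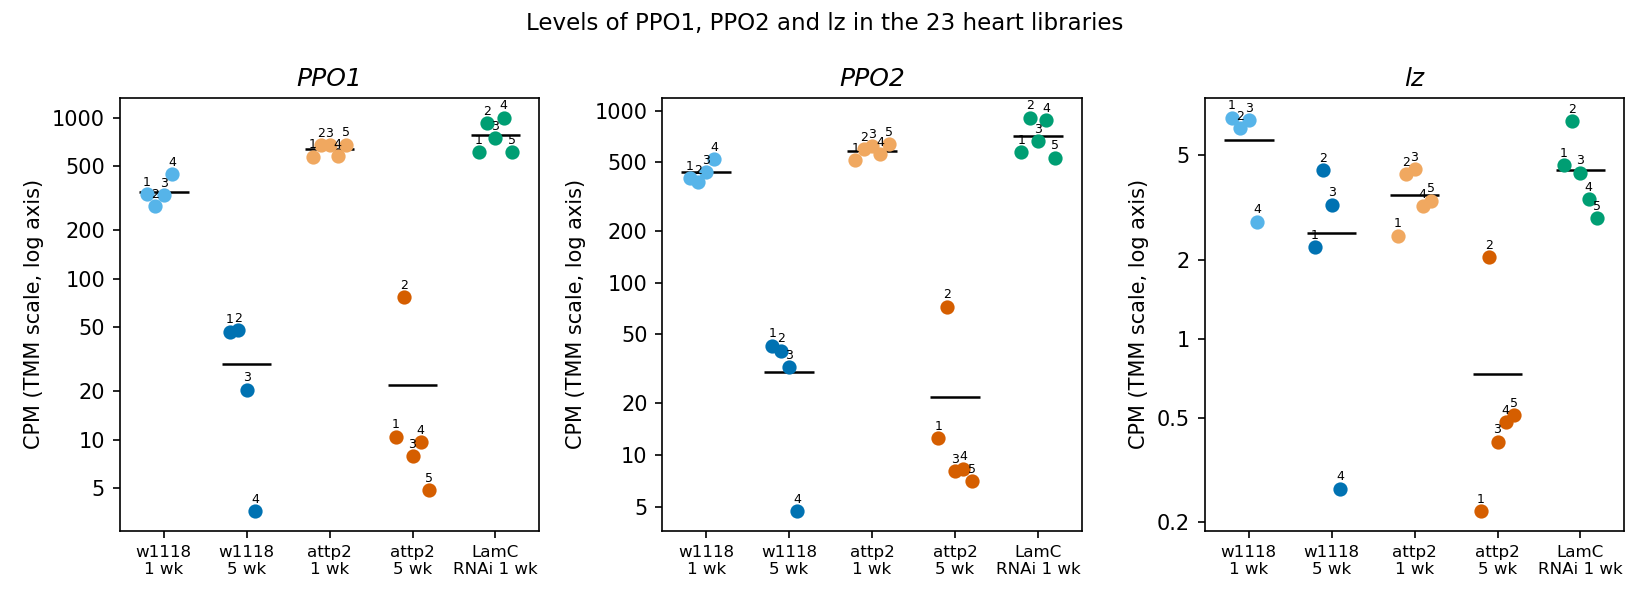
Levels of PPO1, PPO2 and lz in CPM on a log axis, one point per library numbered by replicate, for the 5 groups; the bar is the group mean. Every 5-week library lies below every 1-week library of its strain for PPO1 and PPO2, whereas the ages overlap for lz in w1118; replicate 2 of the old attp2 group, at 76.8 CPM of PPO1, and replicate 4 of the old w1118 group, at 3.62 CPM, stand apart.

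The libraries labelled LamC RNAi held 610, 932, 752, 1004 and 613 CPM of PPO1, 576, 910, 663, 883 and 533 CPM of PPO2, and 4.58, 6.72, 4.29, 3.39 and 2.87 CPM of lz. All 3 ranges overlapped those of attp2 at 1 week. The log2 differences from that group were 0.29 ± 0.59 for PPO1, 0.29 ± 0.55 for PPO2 and 0.31 ± 0.47 for lz (SE). Again as a count and not a test, edgeR placed 0 of the members past the threshold, against 2.41% of all genes tested in either direction (0 at an unadjusted p under 0.05, and 0 by DESeq2). Against attp2 at 5 weeks the log2 differences were 5.16 ± 0.70, 5.04 ± 0.65 and 2.58 ± 0.50 (SE). The low PPO1 and PPO2 levels of those old libraries had chosen the genes, so the 3 of 3 members past the threshold on the higher side, where 10.1% of genes tested lay, are no test. Every LamC RNAi library lay above every old attp2 library for all 3 members, as it did for 6.62% of genes tested. Without old replicate 2 the differences for PPO1 and PPO2 were 6.56 and 6.31. Both contrasts draw on the attp2 libraries that also enter the age contrast.

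The difference between the strains' age effects was not itself used to choose these genes. It is formed from the age effects in which PPO1 and PPO2 were chosen, so its p-values are not free of that choice. In one fit over the 18 control libraries, the age effect in attp2 minus that in w1118 was -1.29 ± 1.01 for PPO1 (SE; edgeR's quasi-likelihood test, adjusted p = 0.584), with a 95% interval of -3.42 to 0.84. It was -0.87 ± 0.91 for PPO2 (adjusted p = 0.703, interval -2.78 to 1.05) and -1.08 ± 0.88 for lz (adjusted p = 0.606, interval -2.95 to 0.79). No strain difference was detectable by edgeR for any member, against 0.761% of genes called in either direction (0 members had an unadjusted p under 0.05). DESeq2 gave an adjusted p for lz alone, at 0.534, and none for PPO1 or PPO2. The edgeR intervals leave room for differences of several fold.

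The SD between libraries was larger in the old groups than in the young ones for all 3 genes. In each strain 1 old library raised the old SD, though in attp2 it stayed above the young SD without that library. The SD of log2 CPM between libraries of PPO1 was 0.28 in w1118 at 1 week and 1.74 at 5 weeks, and 0.13 in attp2 at 1 week and 1.52 at 5 weeks. For PPO2 it went from 0.20 to 1.51 and from 0.12 to 1.40. For lz it went from 0.63 to 1.72 and from 0.34 to 1.12. In the 5-week groups, 91.4 to 99.1% of genes tested had a smaller SD than the member concerned. The PPO genes of young attp2 hearts lay below the gene-wide median SD of 0.22, whereas lz lay above it. Without replicate 4 of old w1118 the SD was 0.70 for PPO1, 0.22 for PPO2 and 0.48 for lz. That is still above the young SD for PPO1, near it for PPO2 and below it for lz. Without replicate 2 of old attp2 it was 0.49, 0.35 and 0.50, each above the young SD of the gene. In young w1118 the SD of lz rested on replicate 4 in turn, and was 0.07 without it. The difference in spread was not tested.

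**Figure D2:**
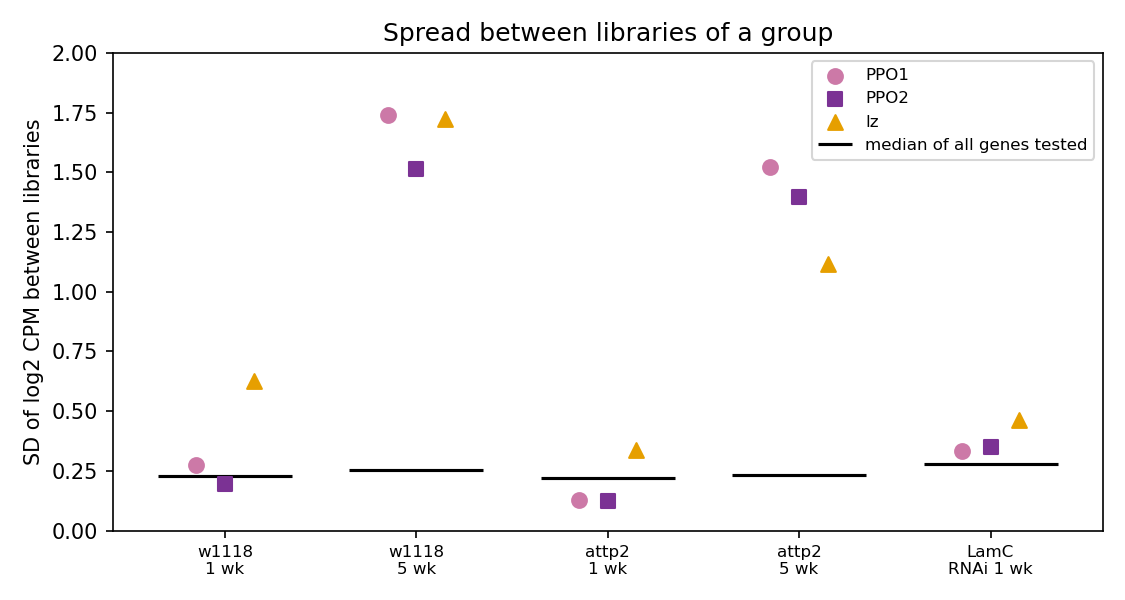
SD of log2 CPM between the libraries of a group for PPO1, PPO2 and lz, with a black line at the median SD of all genes tested. All 3 members lie between 1.12 and 1.74 in the 5-week groups, against medians of 0.23 to 0.26, while PPO1 and PPO2 are between 0.12 and 0.35 in the 1-week groups; the old SDs are 0.22 to 0.70 without 1 library of each strain.

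Compared per length of annotated exon, the prophenoloxidases were abundant and lz was not. PPO1 averaged 149 ± 29.7 CPM per kb (SD, n = 4) in w1118 at 1 week and PPO2 192 ± 27.0 (SD, n = 4). lz averaged 1.64 ± 0.57 CPM per kb there (SD, n = 4). In attp2 at 1 week the values per kb were 273 ± 24.0 for PPO1, 257 ± 21.2 for PPO2 and 1.02 ± 0.23 for lz (SD, n = 5). Within single libraries the level of PPO1 per kb was 0.717 to 0.830 times that of PPO2 in the 4 young w1118 libraries and 1.02 to 1.11 times in the 5 young attp2 libraries. PPO1 was thus the lower of the prophenoloxidases in every young w1118 library and the higher in every young attp2 library, a difference in which strain and table cannot be told apart.

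The balance of PPO1 to PPO2 within a library does not depend on how far both genes fell together. PPO1 gave 0.735 to 0.851 counts per PPO2 count in w1118 at 1 week, and 1.09, 1.19, 0.635 and 0.768 at 5 weeks. In attp2 it gave 1.04 to 1.14 at 1 week and 0.842, 1.06, 0.988, 1.17 and 0.693 at 5 weeks. LamC RNAi hearts gave 1.02 to 1.15. The old ratios ran to both sides of the young ones, and every pair of groups compared overlapped. The log2 difference with age was 0.17 in w1118 (two-sided exact permutation test, p = 0.429, adjusted p = 0.571 over 4 comparisons) and -0.22 in attp2 (exact permutation p = 0.135, adjusted p = 0.27). It was 0.01 for LamC RNAi against attp2 at 1 week (exact permutation p = 0.786, adjusted p = 0.786) and 0.23 against attp2 at 5 weeks (exact permutation p = 0.119, adjusted p = 0.27). Without replicate 4 of old attp2, the highest of its group, the differences against that group became -0.30 for age and 0.32 for LamC RNAi, each with an adjusted exact permutation p of 0.0317. Dropping the highest ratio lowers the old mean by construction, and each library was left out in turn. These p-values are therefore no evidence of a change.

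The log2 change of lz with age was smaller than that of the enzymes, and its count relative to theirs was higher in old hearts. lz amounted to 0.934, 0.950, 0.882 and 0.288 counts per 100 counts of PPO1 and PPO2 together in w1118 at 1 week. At 5 weeks it amounted to 2.50, 4.99, 6.14 and 3.35. In attp2 it amounted to 0.227 to 0.342 at 1 week and to 1.00, 1.37, 2.59, 2.72 and 4.32 at 5 weeks. The ages did not overlap in either strain, and the log2 differences were 2.54 and 2.89. These carry no test, because the denominator was chosen for its fall. The LamC RNAi libraries, at 0.180 to 0.387, overlapped attp2 at 1 week, with a log2 difference of 0.01.

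**Figure D3:**
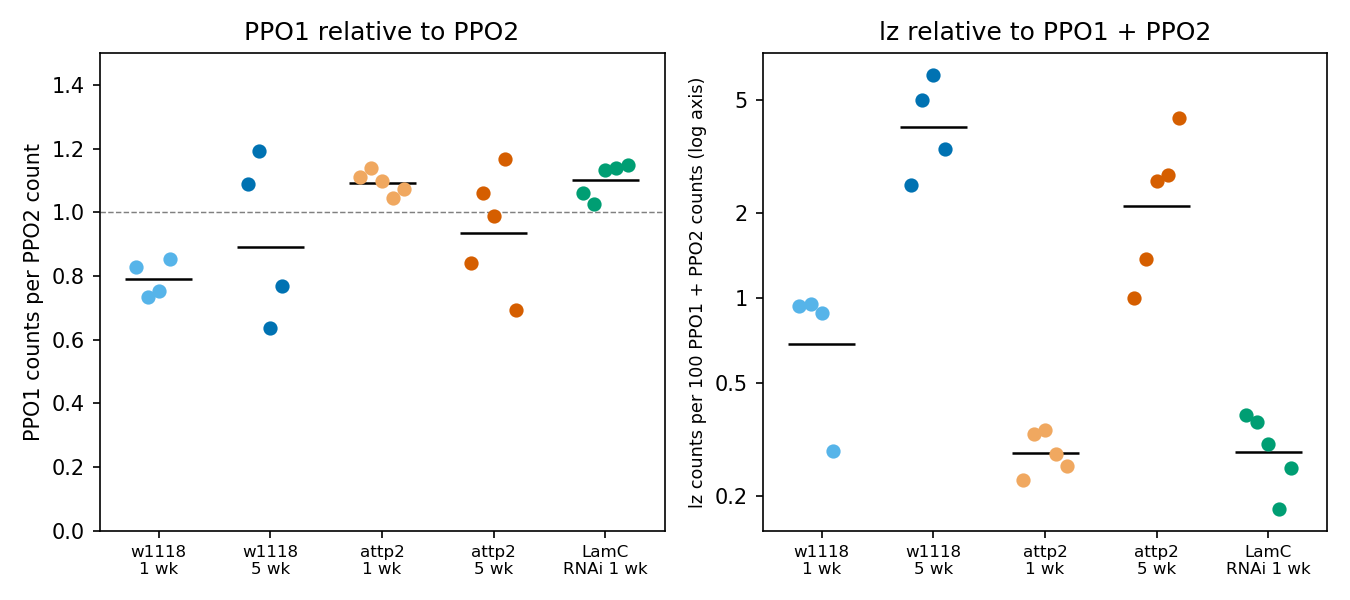
Left, PPO1 counts per PPO2 count on a linear axis; right, lz counts per 100 PPO1 and PPO2 counts on a log axis; one point per library, with the geometric mean of each group as a bar and a ratio of 1 dashed. The left panel shows old libraries from 0.635 to 1.19 around young ones, and the right panel shows old libraries at 1.00 to 6.14 above young ones at 0.180 to 0.950.

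Within groups, a library high in PPO1 was high in PPO2. After subtracting each group's mean log2 CPM, Pearson's r between them was 0.98 over the 23 libraries, given as a description. It was 0.82 without the 2 libraries farthest from the median, named below. lz was the gene most like their mean among 8099 genes with at least 1 CPM in each table, with r = 0.79 (permutation within groups, p = 0.039) and Spearman's rho = 0.61 (permutation p = 0.023). It was the only relation tested. It rests on the 2 libraries farthest from the median, replicate 2 of attp2 at 5 weeks and replicate 4 of w1118 at 5 weeks. Without them r was -0.21 over 21 libraries (permutation p = 0.42), and lz ranked 6635. In the w1118 libraries alone lz ranked 146, and in the attp2 and LamC RNAi libraries alone 39.

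The next 9 genes by the same measure were CG14207, CG6429, Nep4, CG5418, CG32335, CG12207, l(2)efl, CG16772 and IM33, with r from 0.71 to 0.67. Nep4 encodes a neprilysin peptidase, l(2)efl a small heat shock protein and IM33 an immune-induced peptide. Without the same 2 libraries r was highest for CG32335, at 0.61, and lowest for CG6429, at 0.06. Of the 10 genes most like PPO1 and PPO2, lz included, 0 stayed in the top 10 without those libraries. The same held in the w1118 libraries alone and in the attp2 and LamC RNAi libraries alone. CG5418 averaged 5.45 CPM in w1118 at 1 week and 0.57 at 5 weeks, and 3.91 and 0.72 CPM in attp2. CG32335 averaged 2.46 CPM in young and 0.27 in old w1118, with 2.86 and 0.71 CPM for the attp2 ages. CG16772 went the other way in w1118, from 263 to 738 CPM, and averaged 115 and 75.9 CPM in attp2.

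**Figure D4:**
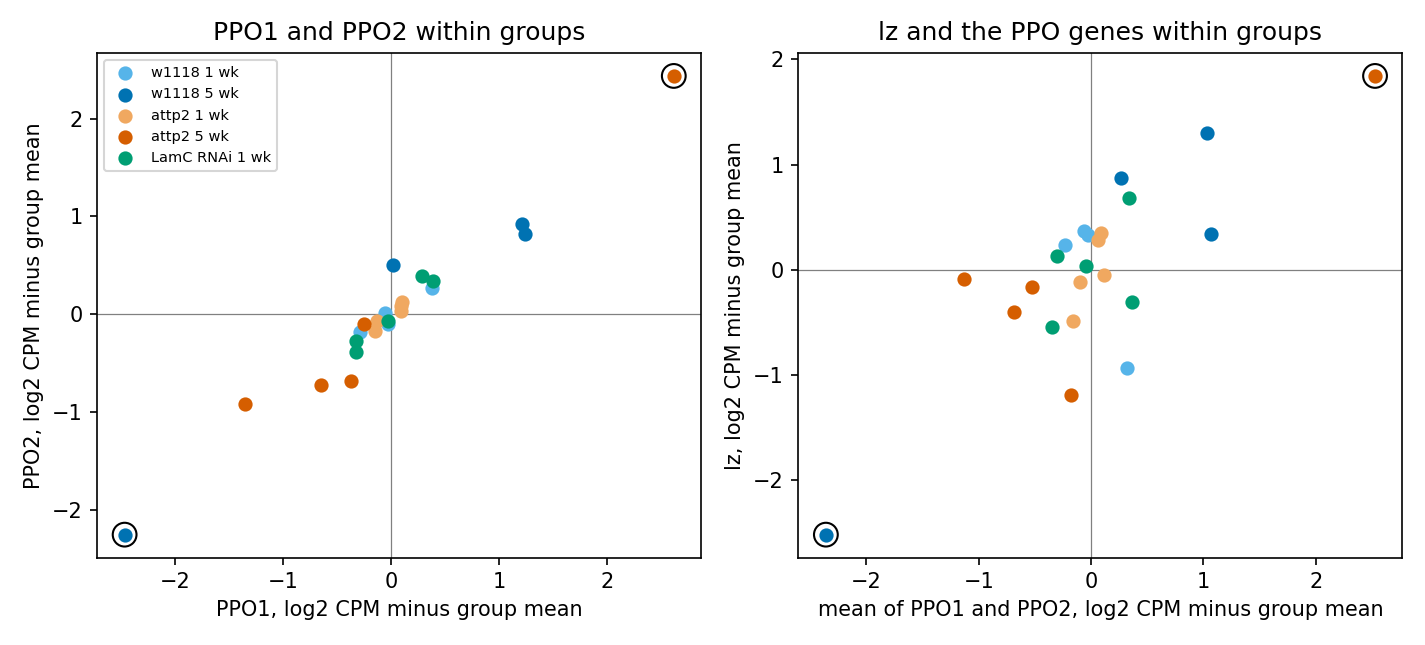
Log2 CPM minus the group mean, one point per library coloured by group, for PPO2 against PPO1 (left) and lz against the mean of both (right). PPO1 and PPO2 fall along one line (r = 0.98, and 0.82 without the 2 ringed libraries). The relation of lz (r = 0.79) rests on the ringed libraries, and r is -0.21 without them.

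The label crystal cell was checked against other genes reported for these cells. Of 10 such genes, 9 passed the low-count filter. With age, 3 of them fell and 0 rose in each strain, with a median log2 fold change of -0.07 in w1118 and -0.53 in attp2, against 0.01 and 0.03 over all genes tested. Over all genes, edgeR called 3.70% lower and 5.21% higher in w1118, and 10.5% lower and 9.60% higher in attp2. At an unadjusted p under 0.05, 1 crystal cell gene was higher in w1118 and 0 in attp2, and DESeq2 called 1 and 0. In w1118 they were CG17109 at -4.45 ± 0.77 (SE; edgeR, adjusted p = 0.00798), CG10467 at -0.65 ± 0.14 (adjusted p = 0.0195) and CG5828 at -0.45 ± 0.11 (adjusted p = 0.0314). In attp2 they were CG10467 at -1.18 ± 0.17 (adjusted p = 3.99e-04), CG10469 at -0.78 ± 0.19 (adjusted p = 0.0107) and CG5828 at -0.53 ± 0.16 (adjusted p = 0.0318). The CG5828 call was lost without any of several single libraries in either strain, at adjusted p up to 0.0935 in w1118 and 0.0761 in attp2. The w1118 call of CG10467 was lost without old replicate 2 (adjusted p = 0.0544), and that of CG10469 in attp2 without the 4 libraries with gut transcripts (adjusted p = 0.0803).

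peb, a zinc-finger factor of crystal cell maturation, averaged 69.6 CPM in young and 84.2 CPM in old w1118 hearts, against 226 and then 125 CPM in attp2 (log2 0.28 ± 0.22, adjusted p = 0.461, and -0.85 ± 0.45, adjusted p = 0.218). The summed level of the 10 genes had a mean of 280 and 264 CPM in young and old w1118 and of 475 and 281 CPM in attp2. Against attp2 at 5 weeks, which shares those libraries with the age contrast, 4 of the 9 were higher in LamC RNAi and 0 lower (edgeR; 0 lower at an unadjusted p under 0.05, and 0 by DESeq2), where 10.1% of all genes were called higher. Of the 4, fok was lost in the pairwise fit (adjusted p = 0.0654), with the replicate block (0.054) and without any of 6 single libraries (up to 0.0856), and CG10469 without the libraries with gut transcripts (0.0624).

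CG17109 was the one gene of the 9 whose log2 change matched that of the enzymes in size, and it did so in w1118 alone, the strain in which its young level was high. It stood at 12.1, 9.63, 14.3 and 17.2 CPM in w1118 at 1 week and at 1.46, 1.10, 0.12 and 0 CPM at 5 weeks. It lies on 3R from 23095690 to 23097240 and overlaps Cow on the opposite strand. In attp2 the gene was already at 0.21 to 0.70 CPM at 1 week and at 0 to 0.95 CPM at 5 weeks, where the log2 fold change was -0.43 ± 0.93 (SE; edgeR, adjusted p = 0.801). LamC RNAi hearts held 0.16 to 1.82 CPM. The strain difference in its age effect was 3.93 ± 1.43 and was not called (edgeR, adjusted p = 0.195).

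Of the Lozenge and Runx network, 13 of 19 genes were tested. In w1118 0 were called by edgeR, 2 were lower at an unadjusted p under 0.05 and DESeq2 called 1, N. In attp2 2 of the 13 fell and 0 rose (edgeR; 0 higher at an unadjusted p under 0.05, and 0 by DESeq2), beside 10.5% of all genes called lower and 9.60% higher. The receptor N was at 17.4, 16.2, 25.2, 23.9 and 21.5 CPM in attp2 at 1 week and at 3.21 to 7.03 CPM at 5 weeks. The ages did not overlap, and the log2 fold change was -1.94 ± 0.26 (SE; edgeR, adjusted p = 1.99e-04). In w1118 it was -0.71 ± 0.20 (adjusted p = 0.0535), and the strain difference was -1.21 ± 0.30 (adjusted p = 0.0713). srp was at 151 and 113 CPM in attp2 (log2 -0.42 ± 0.12, adjusted p = 0.0212, and 0.105 without the libraries with gut transcripts). Bgb, the Runx partner subunit, was not called, at -0.34 ± 0.12 in w1118 (adjusted p = 0.105) and -0.46 ± 0.19 in attp2 (adjusted p = 0.0982).

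Other hemocyanin-fold genes were not called with age by edgeR. In w1118 0 of 4 tested had an unadjusted p under 0.05 and DESeq2 called 0. In attp2 2 of 5 tested had one, 1 in each direction, and DESeq2 called 1 lower, Lsp1beta. Over all genes, edgeR called 3.70% lower and 5.21% higher in w1118, and 10.5% lower and 9.60% higher in attp2. PPO3, on 2R from 23064769 to 23067183, averaged 2.05 CPM in w1118 at 1 week and 2.62 CPM at 5 weeks, with 0.59 and 1.26 CPM for the attp2 ages. Its log2 fold changes were 0.35 ± 0.40 (SE; edgeR, adjusted p = 0.634) and 1.08 ± 0.48 (adjusted p = 0.133). Per kb it averaged 0.92 CPM in young w1118 hearts. The larval serum storage genes Lsp1beta and Lsp2 were higher in LamC RNAi than in attp2 at 5 weeks, where 10.1% of genes tested were called higher. The log2 differences were 5.72 ± 1.00 (SE; edgeR, adjusted p = 0.00149) and 3.58 ± 1.10 (adjusted p = 0.0349). The call of Lsp2 was lost without any of several single libraries, at adjusted p up to 0.0782. Age differs too in that contrast. Lsp1beta averaged 26.5 CPM in attp2 at 1 week and 254 CPM in LamC RNAi, and Lsp2 31.7 and 173 CPM, with overlapping libraries. At that age edgeR called 0 of 5 higher, beside 0.866% of all genes (2 at an unadjusted p under 0.05, and 1 by DESeq2).

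The cascade upstream of the enzymes senses microbes and cleaves prophenoloxidase through serine proteases. Of 18 genes tested from a list of this cascade and of other immune sensing and signalling genes, 1 rose and 1 fell in w1118. Over all genes, 5.21% were called higher and 3.70% lower there. In attp2 2 rose and 2 fell, where 9.60% and 10.5% of all genes did, so the counts of the list lie near those of all genes. PGRP-SD, a peptidoglycan sensor, rose by log2 1.95 ± 0.24 in w1118 (SE; edgeR, adjusted p = 0.00192) and 1.21 ± 0.32 in attp2 (adjusted p = 0.017). In attp2 the intracellular sensor PGRP-LE rose by 0.76 ± 0.15 (adjusted p = 0.00368), the protease gene grass fell by 0.79 (log2, SE 0.17, adjusted p = 0.00626) and the TNF ligand gene egr fell by 0.41 (log2, SE 0.11, adjusted p = 0.0149). The protease gene psh fell in w1118 at -0.46 ± 0.13 (adjusted p = 0.0472), a call lost without each library in turn except old replicate 2, at adjusted p up to 0.121. The protease genes Hayan, MP1 and Sp7, which act next to the prophenoloxidases, were not called in either strain. Hayan gave 0.51 ± 0.31 (adjusted p = 0.332) in w1118 and 0.62 ± 0.23 (adjusted p = 0.0698) in attp2.

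Other enzymes make the phenol substrates and turn them into melanin. Of 11 of their genes tested, 0 were called in w1118 by edgeR (1 had an unadjusted p under 0.05, and DESeq2 called 0), and 1 fell in attp2, where 10.5% of all genes did. It was yellow-f2, a dopachrome conversion enzyme, at -1.08 ± 0.28 (SE; edgeR, adjusted p = 0.0147, and 0.0666 without the libraries with gut transcripts). ple, the tyrosine hydroxylase, gave 0.00 ± 0.76 (adjusted p = 1) in w1118 and 0.37 ± 0.42 (adjusted p = 0.602) in attp2.

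Plasmatocytes, the phagocytic blood cells that share the hearts with crystal cells, were read from 11 genes. In w1118 4 fell and 1 rose, where 3.70% of all genes were called lower and 5.21% higher. In attp2 9 fell and 1 rose, where 10.5% were called lower and 9.60% higher. The median log2 fold change of the 11 was -0.34 in w1118 and -0.64 in attp2, against 0.01 and 0.03 over all genes tested. Hml, a haemolectin, fell in w1118 by 1.09 (log2, SE 0.19; edgeR, adjusted p = 0.00885), and Pxn, a peroxidasin, fell by 2.53 (log2, SE 0.29, adjusted p = 0.00122). The receptor gene NimC4 was at -4.03 ± 0.43 (adjusted p = 9.67e-04). In attp2 Hml was at -1.49 ± 0.18 (adjusted p = 1.19e-04), Pxn at -2.78 ± 0.27 (adjusted p = 2.05e-05) and NimC4 at -2.72 ± 0.39 (adjusted p = 3.71e-04). The scavenger receptor gene crq rose in both, by 0.67 ± 0.15 (adjusted p = 0.0249) and 0.74 ± 0.11 (adjusted p = 4.36e-04), and the w1118 call was lost without any of 5 of the 8 libraries, at adjusted p up to 0.0938. The summed level of the 11 genes averaged 5774 and 4360 CPM in young and old w1118 and 5838 and 3849 CPM in attp2. Which cells those counts came from was not tested, nor was the part of plasmatocytes in the levels of PPO1 and PPO2.

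In LamC RNAi hearts against attp2 at 1 week, 2 plasmatocyte genes were higher and 0 lower, where 0.866% of genes tested were called higher and 1.54% lower. At an unadjusted p under 0.05, 9 of the 11 were higher and 0 lower, and DESeq2 called 6 higher and 0 lower. The phagocytic receptor gene NimC1 was higher by log2 1.13 ± 0.14 (SE; edgeR, adjusted p = 0.001) and Sr-CI by 0.99 ± 0.15 (adjusted p = 0.00384). Their summed level was 7345 to 9545 CPM in LamC RNAi and 5301 to 6696 CPM in attp2 at 1 week, with no overlap. PPO1, PPO2 and lz overlapped between the same groups. Of the other crystal cell genes 0 were called there (edgeR; 1 had an unadjusted p under 0.05, and DESeq2 called 0).

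Lamellocytes were read from 4 genes. In w1118 0 were called (edgeR; 0 at an unadjusted p under 0.05, and 0 by DESeq2), where 3.70% of all genes were called lower and 5.21% higher. In attp2 1 was called lower and 0 higher, where 10.5% of all genes were called lower and 9.60% higher. It was the surface protein gene atilla, which fell by 0.77 (log2, SE 0.12; edgeR, adjusted p = 5.91e-04), with a strain difference of -0.84 ± 0.20 (adjusted p = 0.0592).

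**Figure D5:**
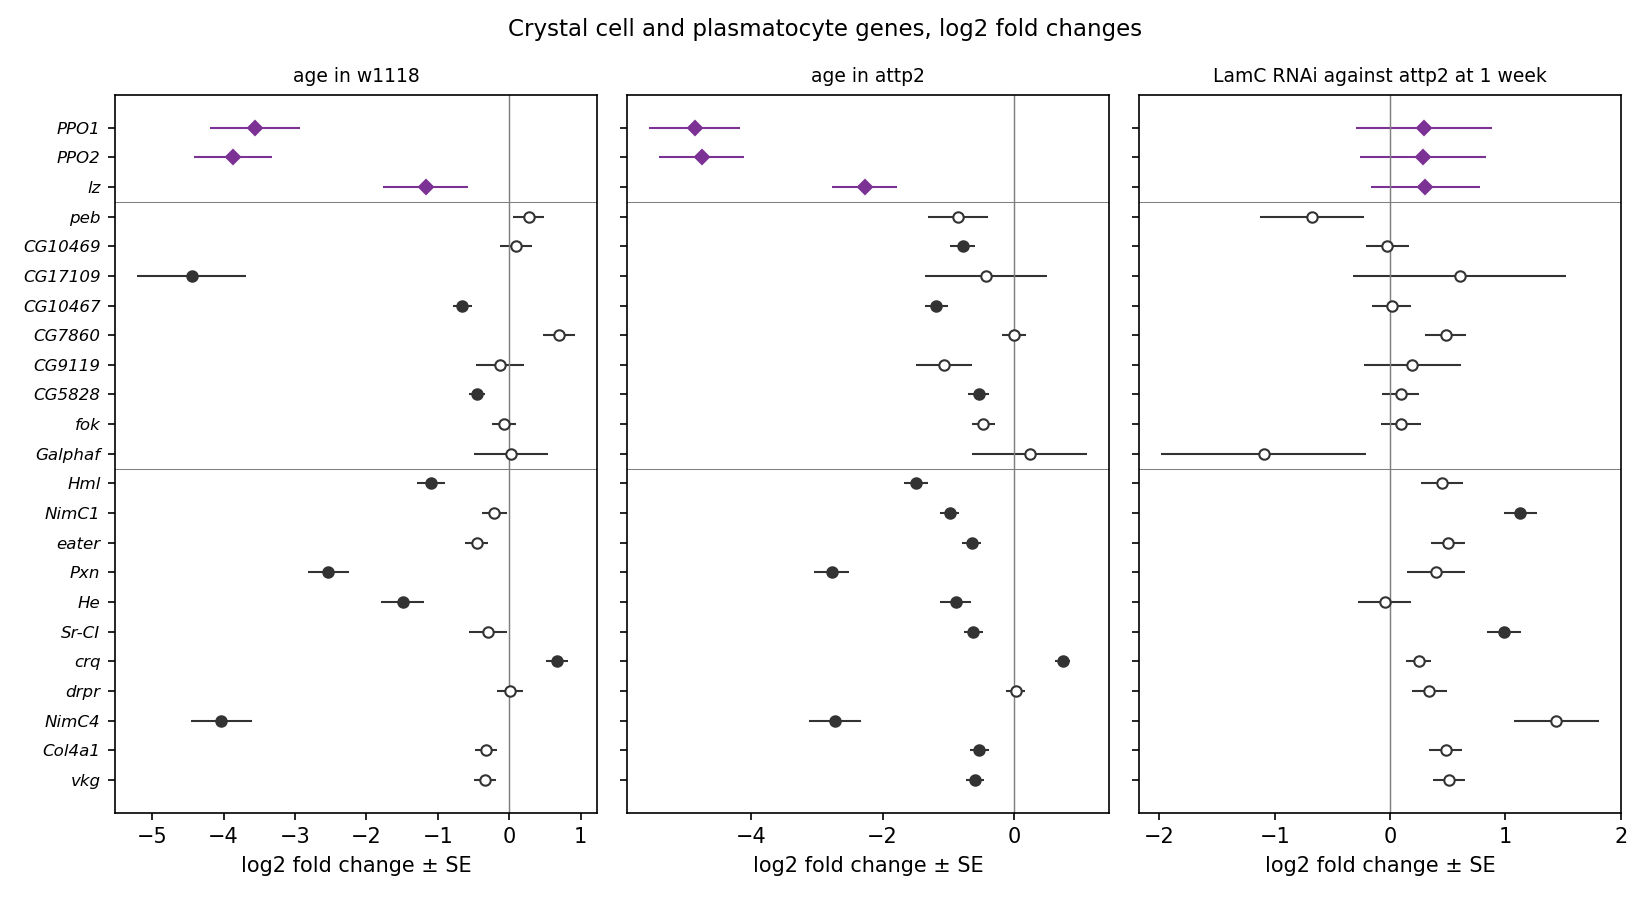
Log2 fold changes with SE for the 3 members (diamonds), 9 other crystal cell genes and 11 plasmatocyte genes (circles, filled where edgeR's adjusted p is under 0.05) in the age contrasts and in LamC RNAi against attp2 at 1 week; the x axes differ between panels. CG17109 in w1118, at -4.45, is the one other crystal cell gene as low as PPO1 and PPO2, and NimC4 and Pxn are the lowest plasmatocyte genes in both strains.

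Elk, which overlaps PPO1 on the opposite strand, averaged 7.23 CPM in young and 5.98 CPM in old w1118, with 8.52 and 5.33 CPM for the attp2 ages. Its log2 fold changes were -0.28 ± 0.19 (SE; edgeR, adjusted p = 0.38) and -0.68 ± 0.18 (adjusted p = 0.0149). The library kit keeps strand, per the labels, but no source used here gives the strand setting of the counting, so the strand each count came from is unknown.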

How the data were processed

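Hearts were dissected, and stranded mRNA libraries were made from their RNA, per the labels' protocols. The authors deposited raw read counts per gene, and cutadapt, STAR, DESeq2 and the dm6 build are named in the submitters' processing notes, with versions not given in the sources used here. Gene coordinates come from the BDGP6.54 annotation. No sequences are printed. From the deposited counts, edgeR 4.0.16 in R 4.3.3 (filterByExpr, TMM scaling, quasi-likelihood test, Benjamini-Hochberg adjustment over all genes tested, threshold 0.05) was fitted to the 8 w1118 libraries, to the 15 attp2 and LamC RNAi libraries together, and to the 18 control libraries for the strain difference. CPM is on the TMM scale. Log2 CPM uses a prior count of 2, and ratios of counts add 0.5 to each. Ratios were compared by two-sided exact permutation tests. Named genes are the members, the 10 genes most like PPO1 and PPO2 within groups, PPO3, the other crystal cell genes, and at most 4 called genes per list, with CG5418, CG32335, CG16772, Bgb, Hayan, ple, Elk, LamC and Hand added as context after their values were seen. The members and lists were chosen with earlier results of these data known. DESeq2 1.42.0, other scalings and filters, a replicate block and left-out libraries were alternatives. On simulated counts the edgeR fit recovered 91.9 to 100% of genes changed by log2 4 in the age and LamC contrasts. It recovered 54 to 68.4% of those changed by log2 1, so changes of that size or smaller can go uncalled. No pair of libraries in a group agreed within counting noise.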

Additional observations from a re-analysis of the deposited data

Results flagged for a closer look

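A library was marked where it stood far from the others of its group, and 8 of 35 group checks did so. The checks are not independent, since 1 library can be marked for several genes and for a ratio of them. No rate by chance is therefore given. In attp2 at 5 weeks, replicate 2 held 76.8 CPM of PPO1, 72.5 CPM of PPO2 and 2.04 CPM of lz, each far above the other 4 libraries. In w1118 at 1 week, replicate 4 held 2.79 CPM of lz, below the other 3 libraries, while its PPO1 and PPO2 were the highest of its group, and its log2 ratio of lz to PPO1 and PPO2 was -8.44. CG17109 stood high in replicate 5 of attp2 at 1 week (0.703 CPM), replicate 3 of attp2 at 5 weeks (0.947 CPM) and replicate 3 of LamC RNAi (1.82 CPM). Those replicates 3 are among the 4 libraries with gut transcripts, whose part in the CG17109 level was not tested.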

How the results depend on the processing

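The falls of PPO1, PPO2 and lz with age kept their direction under the other scaling, DESeq2, the filter off, the replicate block, pairwise fits and each left-out library. With single libraries left out, the attp2 age change ranged from -6.27 to -4.61 for PPO1, -6.02 to -4.53 for PPO2 and -3.11 to -2.04 for lz, and LamC RNAi against attp2 at 5 weeks from 4.90 to 6.56 for PPO1 and 4.81 to 6.31 for PPO2. The within-group r of lz was -0.21 without the 2 farthest libraries, an alternative chosen after seeing the data. Same-numbered libraries had deviations that correlated at -0.14 to 0.85, over 0.1 in 12 of 19 pairs, and libraries of unlike number were not compared. The labels name no pairing, so the main fits were unpaired and the replicate block was an alternative. Whether same-numbered libraries share a batch was not tested. With the replicate block the strain difference gave 70 genes higher and 106 lower (29 and 50 without it). In that block the lz to PPO log2 differences stayed 2.54, 2.89 and -2.88, where 4 or 5 pairs cannot pass a two-sided test. Counts over all genes moved with the tool. DESeq2 called 844 higher and 732 lower for age in w1118, 293 and 399 for LamC RNAi at 1 week, and 189 and 242 for the strain difference. Fits of only the groups compared called 72 lower for LamC RNAi at 1 week and 665 higher against 5 weeks. Without the 4 libraries with gut transcripts, left out after seeing the data, these were 38 higher and 37 lower, and 661 higher. Leaving out 1 library gave 174 to 578 higher and 124 to 512 lower for age in w1118, 6 to 115 and 5 to 156 for the strain difference, and 47 to 148 and 56 to 247 for LamC RNAi at 1 week. The PPO1 to PPO2 log2 difference then ranged from -0.30 to -0.12 for age in attp2, -0.0057 to 0.036 for LamC RNAi at 1 week and 0.13 to 0.32 against 5 weeks, and the lz to PPO difference for LamC RNAi at 1 week from -0.094 to 0.18. Apart from the fewer genes or libraries in a fit, the cause was not tested. Depth limits lz most, at 12 counts in its lowest library.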
